A study of Homo sapiens with 6 samples.

Results

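Matricellular proteins are secreted into the extracellular matrix and act mainly on how cells attach, spread and respond to growth factors, whereas fibronectin, fibrillins and fibulins build the fibres themselves. Genes of this kind were followed in TFK1 cells, a human cholangiocarcinoma line. They were the rows of the expression table with the symbols SPARC, SPOCK1, THBS1, THBS2, TNC, SPP1, POSTN, FN1, FBLN1 and FBN1, and all 10 were among the 23569 genes listed. In bile duct carcinoma such proteins are known chiefly from the desmoplastic stroma, where fibroblasts secrete much of the matrix, and some of them, osteopontin and fibronectin above all, are also made by epithelial cells. The genes were selected on their FPKM differences between oeNC and oeSTUB1 cells as well as on their function, so these differences are given as a description, without p-values.

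RNA was sequenced from TFK1 cells carrying a lentiviral negative control (oeNC, n = 3) and from TFK1 cells overexpressing STUB1 (oeSTUB1, n = 3). STUB1 encodes an E3 ubiquitin ligase that also works as a co-chaperone. Both populations were transduced with lentivirus and selected with puromycin, no further treatment was given, and nothing in the labels says that the 3 libraries of a group came from separate transductions, so that p-values measure the spread between these libraries. The comparison asked which genes follow the STUB1 level in cholangiocarcinoma cells. Values are FPKM, fragments divided by gene length and by the library total, a scale on which levels of different genes can be set side by side. Library totals, recovered from the FPKM steps, lay between 33106564 and 36744521 fragments. STUB1 itself was measured at 32.9, 33.0 and 30.9 FPKM in oeNC and at 61.4, 75.0 and 61.9 FPKM in oeSTUB1. Of the listed genes, 15353 reached a mean of 0.1 FPKM over the 6 libraries and entered a limma fit of log2(FPKM + 0.1). Genes are said to have risen or fallen where the p-value after Benjamini-Hochberg adjustment was under 0.05. By this rule 1076 genes rose and 1012 fell, 13.6% of those tested in all.

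Markers of biliary epithelium were present in both groups, all 8 of 8 on the list, of which 4 fell, 1 rose and 3 did not pass. Those that passed were 62.5% of these markers, against 13.6% of all tested genes. CLDN4 was low, with 9 to 39 fragments per library. CDH1 fell from 62.6 ± 2.20 to 30.0 ± 7.53 FPKM (SD, n = 3 each, adjusted p = 0.0055 from limma). EPCAM fell from 6.51 ± 1.19 to 2.96 ± 0.732 FPKM (SD, n = 3 each, adjusted p = 0.010 from limma). KRT18, an epithelial keratin, lay between 3844 and 4063 FPKM in oeNC and between 2147 and 2902 FPKM in oeSTUB1, and lost the adjusted p-value in 5 of the 6 fits that left out 1 library. KRT19, another biliary keratin, was low but rose, at 0.374 to 0.529 FPKM in oeNC and 2.51 to 3.41 FPKM in oeSTUB1 (adjusted p = 0.00018 from limma). Because the matrix genes are typical of fibroblasts, markers of that cell type were also read. Of 10 fibroblast markers 8 were listed, which summed to 1.31 to 2.36 FPKM in control libraries and 2.16 to 4.05 FPKM with STUB1, most of it COL1A1. The part of these low levels in the results below was not tested. DCN, a defining fibroblast marker, was at 0 in all oeNC libraries and had at most 2 fragments in an oeSTUB1 library, COL1A2 had at most 2 fragments in any library, and FAP and DPT were not in the table. THY1 and COL3A1, both below the filter, were higher in oeSTUB1 without overlap. THY1 had 4, 1 and 2 fragments in oeNC and 8, 19 and 14 in oeSTUB1, and COL3A1 had 5, 8 and 2 against 12, 19 and 10. The 2 fibroblast markers that could be tested did not pass (limma, adjusted p = 0.12 for COL1A1 and 0.083 for LUM, the latter lower in oeSTUB1), although COL1A1 passed with a replicate block (0.020) and LUM without oeSTUB1 replicate 2 (0.025) and with a correction for gene length (0.046). Summed endothelial markers stayed between 0.0770 and 0.250 FPKM over all libraries, of which 1 could be tested and did not pass. Summed leukocyte markers lay between 32.3 and 34.7 FPKM in oeNC and between 25.8 and 26.6 FPKM in oeSTUB1. Most of this was CD68, a lysosomal protein typical of macrophages, which fell from 27.1, 27.7 and 26.8 FPKM to 19.2, 19.1 and 19.4 FPKM (log2 fold change -0.50, adjusted p = 0.0030 from limma). PTPRC, the pan-leukocyte marker, lay between 0.0575 and 0.280 FPKM over all libraries. Both groups were cultures of a cholangiocarcinoma line, and the cells from which these marker transcripts came were not identified. In bulk RNA, a change in the number of cells with a transcript and in its amount per cell cannot be told apart.

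One library stood apart in a way that touches long matrix transcripts. In oeSTUB1 replicate 2, genes under 2000 bases had a median 0.33 above the other 2 libraries of the group on the log2 scale, and genes of 8000 bases and over had a median 0.42 below them. The corresponding medians of the oeNC libraries stayed between -0.05 and 0.04. Across 15353 genes, Spearman's rho between length and the deviation of oeSTUB1 replicate 2 was -0.56, a description over genes that share this library. The longest members deviated in the direction of this slope, but by more than the median of their length class. TNC (9240 bases), which was below the filter, was 1.27 below the other oeSTUB1 libraries on the log2 scale. FN1 (recovered length 8571 bases) was 1.02 and FBN1 (11609 bases) 0.82 below the other oeSTUB1 libraries on the log2 scale. SPP1, the shortest member at 1750 bases, was 0.33 above them. SPOCK1 and FBLN1, of middle length, were 0.25 and 0.23 above and so lay off the slope. SPARC (3451 bases) was 0.16 below them, where genes of 2000 to 4000 bases had a median 0.12 above. Values without this library are therefore given wherever a member depended on it.

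**Figure D1:**
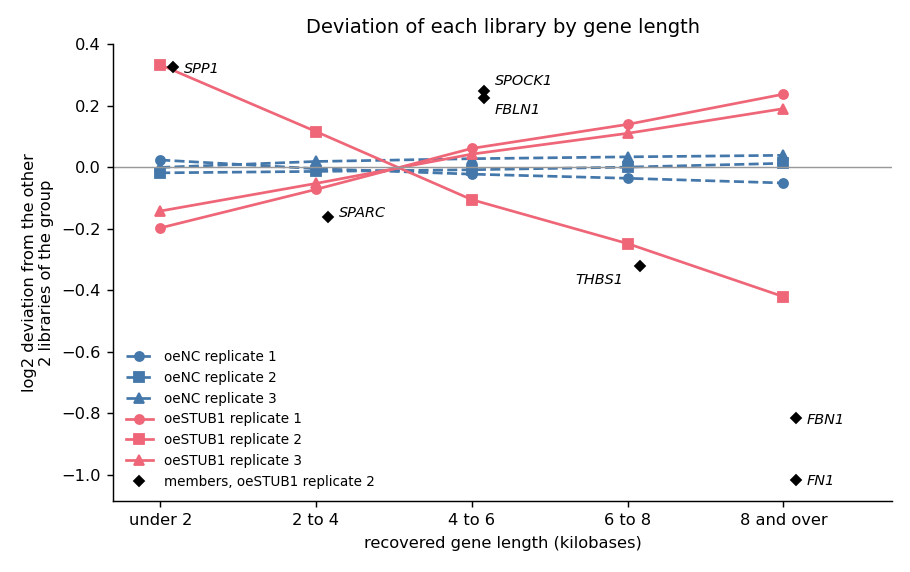
Median log2 deviation of each library from the other 2 libraries of its group (vertical axis), for tested genes in 5 classes of recovered length in kilobases (horizontal axis). Lines are medians over genes, dashed for oeNC and solid for oeSTUB1, and black diamonds are the 7 tested members in oeSTUB1 replicate 2. That library falls from 0.33 to -0.42 with length, and FN1 and FBN1 lie below its line.

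The members differed in the CpG content of their promoters, given here because DNA methylation, which occurs at CpG sites, was among the subjects of the study. In the 250 bases before the RefSeq transcription start (GRCh38.p14), matched by symbol for all members other than SPOCK1, the number of CpG dinucleotides ran from 1 in POSTN to 32 in FN1, against a median of 11 over 27305 promoters. Few CpGs were found in POSTN (1) and SPP1 (3). SPARC had 7, and 41.6% of all promoters had fewer. THBS2 and TNC each had 12, close to that median. THBS1 had 24, FBN1 25 and FBLN1 27. Promoters with fewer CpGs than FN1 made up 90.7% of all. Among the tested members with a promoter, those higher in oeSTUB1 had from 7 to 25 CpGs. Those lower, with FN1 included although it did not pass, had from 3 to 32. The members were selected on this contrast, so nothing is read from these ranges. A GC box (GGGCGG on either strand) was present in 4 of these 9 (THBS1, TNC, FN1 and FBLN1) and in 42.3% of all promoters, and an AP-1 motif (TGANTCA on either strand) in 1, POSTN, and in 6.6% of all. The letters TATAAA on either strand occurred in POSTN and THBS2 and in 11.1% of all promoters. Methylation was not measured in these files. The 4 promoters printed here span this range, each limited to the bases outside the GENCODE gene, written 5′ to 3′ on the strand of the gene with CpG dinucleotides in capitals. THBS1 is a CpG-rich promoter of a gene that rose, FN1 the richest, SPP1 a CpG-poor promoter of a gene that fell, and POSTN that of a gene with almost no fragments.
THBS1, chr15:39580829-39581078, plus strand: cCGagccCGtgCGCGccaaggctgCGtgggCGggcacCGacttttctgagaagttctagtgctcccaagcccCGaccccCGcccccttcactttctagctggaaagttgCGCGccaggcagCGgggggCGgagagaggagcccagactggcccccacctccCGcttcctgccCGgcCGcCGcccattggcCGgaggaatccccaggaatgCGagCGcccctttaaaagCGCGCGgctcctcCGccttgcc
FN1, chr2:215436173-215436318, minus strand: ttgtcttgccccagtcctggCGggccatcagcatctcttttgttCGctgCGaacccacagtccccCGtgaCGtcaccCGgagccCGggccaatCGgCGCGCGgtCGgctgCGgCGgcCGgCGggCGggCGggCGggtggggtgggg
SPP1, chr4:87975464-87975649, plus strand: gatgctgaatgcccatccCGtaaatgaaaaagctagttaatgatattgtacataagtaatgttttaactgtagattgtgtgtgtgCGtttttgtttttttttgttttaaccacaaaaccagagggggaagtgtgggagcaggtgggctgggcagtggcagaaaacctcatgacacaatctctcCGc
POSTN, chr13:37598845-37599018, minus strand: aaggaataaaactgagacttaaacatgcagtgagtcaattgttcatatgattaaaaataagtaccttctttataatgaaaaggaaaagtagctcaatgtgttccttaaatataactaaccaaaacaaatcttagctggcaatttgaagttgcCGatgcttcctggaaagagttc

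By level, the 10 members fell into a wide range. FN1 and SPP1 were among the most abundant transcripts of the cells, ranking 306 and 337 of 23569 genes by mean FPKM in oeNC. FBLN1 ranked 2836 and THBS1 6565. FBN1, SPARC and SPOCK1 were low in oeNC, and TNC, POSTN and THBS2 ranked 18839 or lower. Of the 10 members 7 passed the filter of 0.1 FPKM and were tested, of which 4 rose (SPARC, SPOCK1, THBS1 and FBN1), 2 fell (SPP1 and FBLN1) and 1, FN1, did not pass. Over all tested genes 7.01% rose and 6.59% fell. In each of these 7 genes the 3 values of one group lay apart from those of the other, as they did in 38.8% of all tested genes. The choice of members used this contrast, so nothing is read from these counts.

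**Figure D2:**
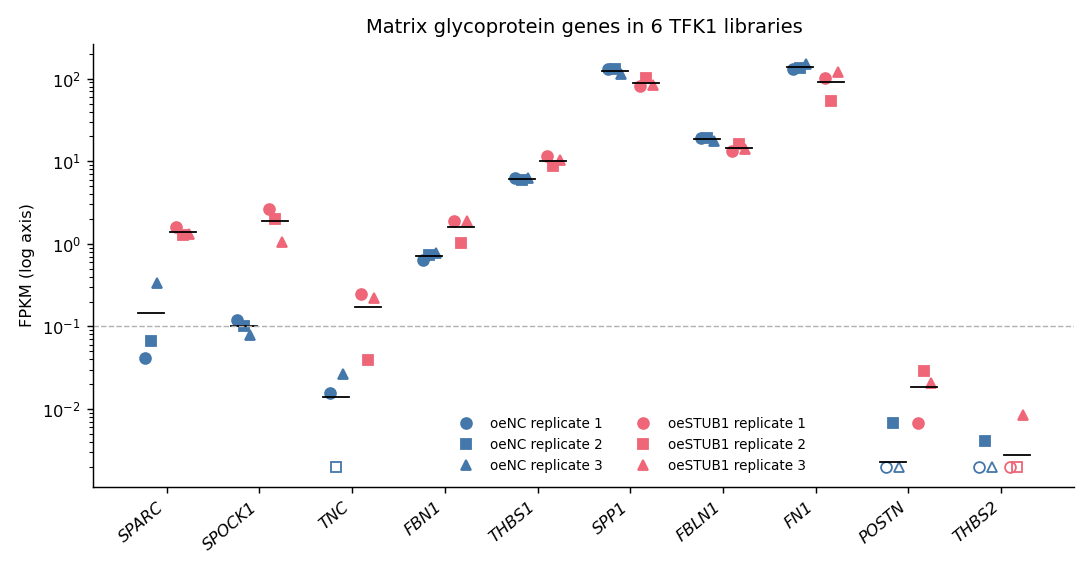
FPKM of the 10 members (horizontal axis) in each library, on a log axis. Symbols are replicates, short lines are group means, the dashed line marks 0.1 FPKM, and open symbols at the bottom stand for values of 0. SPARC, SPOCK1, THBS1 and FBN1 lie higher in oeSTUB1, SPP1, FBLN1 and FN1 lower, and THBS2 and POSTN stay below 0.03 FPKM.

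SPARC (osteonectin), a small calcium-binding matricellular protein that binds collagen, lies on chromosome 5 of GRCh38 from 151661096 to 151687165 in GENCODE release 29. It was measured at 0.0417, 0.0669 and 0.331 FPKM in oeNC and at 1.59, 1.28 and 1.31 FPKM in oeSTUB1. The corresponding fragments were 5, 8 and 42 against 189, 146 and 154. All oeSTUB1 libraries were above all oeNC libraries, and oeNC replicate 3 was the highest control by a wide margin. Mean FPKM was 9.49-fold higher in oeSTUB1, and the log2 fold change was 2.78 (SE 0.40). Without oeNC replicate 3 it was 3.27, so this library lowered rather than made the difference.

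SPOCK1 (testican-1), a proteoglycan core protein that carries a SPARC-like module, lies on the same chromosome from 136975298 to 137598379. Its values were 0.119, 0.102 and 0.0790 FPKM in oeNC and 2.62, 2.00 and 1.04 FPKM in oeSTUB1. With 20, 17 and 14 fragments against 436, 319 and 172, the controls were tightly grouped and the oeSTUB1 libraries were spread. The mean was 18.9-fold higher in oeSTUB1, and the log2 fold change of 3.23 (SE 0.31) was the largest among the tested members. SPARC and SPOCK1 thus moved from below 0.4 FPKM in every control library to over 1 FPKM in every oeSTUB1 library. Over the 674 tested genes of chromosome 5 the median log2 difference was 0.06.

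THBS1 (thrombospondin-1), a trimeric glycoprotein that binds CD36 and CD47 and activates latent TGF-beta, lies on chromosome 15 from 39581079 to 39599466. Expression was 6.23, 5.88 and 6.26 FPKM in oeNC and 11.5, 8.68 and 10.3 FPKM in oeSTUB1. Every oeSTUB1 library was above the controls, and the log2 fold change was 0.71 (SE 0.11). It was 0.82 without oeSTUB1 replicate 2, the lowest of its group. THBS2 (chromosome 6, from 169215780 to 169254044), its closest relative, had 0, 1 and 0 fragments in oeNC and 0, 0 and 2 in oeSTUB1. Both groups were at the floor of 3 fragments per library, so no fold change is given for THBS2. Floors cover counting error only.

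TNC (tenascin-C), a large hexameric protein of wounds and tumour stroma, lies on chromosome 9 from 115019578 to 115118257. It stood below the filter, with 5, 0 and 9 fragments in oeNC and 79, 12 and 70 in oeSTUB1. In FPKM these were 0.0156, 0 and 0.0265 against 0.248, 0.0392 and 0.222. The groups did not overlap, but oeSTUB1 replicate 2 was close to the highest control. The mean was 12.1-fold higher in oeSTUB1. The 604 tested genes of chromosome 9 had a median log2 difference of 0.16, and 66.7% of them were higher. POSTN (periostin, chromosome 13, from 37562583 to 37598844), a fasciclin-domain protein that binds integrins and is a classical product of stromal fibroblasts, had 0, 1 and 0 fragments in oeNC and 1, 4 and 3 in oeSTUB1. In FPKM the oeSTUB1 libraries of POSTN were above the controls without overlap. The nearest pair, oeNC replicate 2 (0.00682) and oeSTUB1 replicate 1 (0.00686), had 1 fragment each. POSTN was below the filter, and at such numbers nothing is read from this.

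FBN1 (fibrillin-1), the main component of extracellular microfibrils, lies on chromosome 15 from 48408306 to 48645849. Its values were 0.630, 0.726 and 0.776 FPKM in oeNC and 1.87, 1.02 and 1.87 FPKM in oeSTUB1. The log2 fold change was 1.01 (SE 0.24). In oeSTUB1 replicate 2, the library with low values for long genes, FBN1 was just above the controls, and without that library the log2 fold change was 1.28. Leaving out any one of the other 5 libraries cost FBN1 the adjusted p-value, with log2 fold changes from 0.88 to 1.07.

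SPP1 (osteopontin), a secreted phosphoprotein that binds integrins and CD44, lies on chromosome 4 from 87975650 to 87983426. It was measured at 130.2, 129.8 and 115.2 FPKM in oeNC and at 81.0, 103.1 and 83.4 FPKM in oeSTUB1. All controls were above all oeSTUB1 libraries, the nearest pair being oeNC replicate 3 and oeSTUB1 replicate 2. The log2 fold change was -0.49 (SE 0.11), and -0.60 without oeSTUB1 replicate 2. FBLN1 (fibulin-1), which binds fibronectin and basement membrane proteins, lies on chromosome 22 from 45502238 to 45601135. Values were 19.0, 19.3 and 17.4 FPKM in oeNC and 13.3, 16.1 and 14.2 FPKM in oeSTUB1. This was the smallest difference among the tested members, with a log2 fold change of -0.36 (SE 0.10). Both SPP1 and FBLN1 missed the adjusted p-value when any single library other than oeSTUB1 replicate 2 was left out, and kept their sign.

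FN1 (fibronectin), the matrix glycoprotein to which integrins attach and the most abundant member, lies on chromosome 2 from 215360440 to 215436172. It was measured at 129.5, 136.5 and 150.0 FPKM in oeNC and at 100.5, 54.3 and 120.5 FPKM in oeSTUB1. The controls all exceeded the oeSTUB1 libraries, among which replicate 2 was far below the others. The log2 fold change was -0.67 (SE 0.26) and did not pass the test. The size rested on oeSTUB1 replicate 2, without which the log2 fold change was -0.33 with a smaller spread and an adjusted p-value under the threshold. After a correction of each library for gene length, added once the data had been seen, it was -0.60, also with an adjusted p-value under the threshold. As for the other members, these values describe a gene selected on this contrast. Chromosome 2 had a median log2 difference of -0.21 for its 1031 tested genes, and 22.7% of these were higher. The part of the chromosome shift and of the length slope in the FN1 values was not tested.

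FN1 and SPP1 carried most of the members' fragments. The 10 genes held 0.149%, 0.154% and 0.163% of all library fragments in oeNC and 0.120%, 0.0817% and 0.136% in oeSTUB1. FN1 alone made up 74.7% to 78.8% of the members' fragments in oeNC. It made up 71.9%, 57.0% and 75.9% in oeSTUB1, lowest in replicate 2. The 4 members that rose made up 3.56% to 3.80% of the members' fragments in oeNC and 8.18% to 11.4% in oeSTUB1. The total of these transcripts was lower in every oeSTUB1 library, and most of it was FN1, which did not pass. Within it the share of SPARC, SPOCK1, THBS1 and FBN1 was higher, but these 4 were named for rising in this same contrast. Nothing is read from these shares or from the ratio that follows. The ratio of FN1 to THBS1 in FPKM was 20.8, 23.2 and 24.0 in oeNC and 8.73, 6.25 and 11.7 in oeSTUB1.

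The 5 genes with a pattern most like SPARC over the 6 libraries, by Pearson's r of log2(FPKM + 0.1) among 11375 genes that averaged 1 FPKM or more, were GPR89B, ZBTB47, NKIRAS1, FBXO31 and UTP15, with r between 0.9946 and 0.9995. They share the difference between groups and the higher value in oeNC replicate 3. Their own differences were small, for example 1.07 against 1.60 FPKM in the group means of ZBTB47. In all, 588 genes had r above 0.9.

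Relatives of the members were then read from a list of 36 genes of the same families, of which 32 were in the table and 19 were tested. The choice of members did not use them. This list and those of receptors and assembly genes below were, however, chosen with earlier results of these data known. Of the 19 tested relatives, 6 rose, 3 fell and 10 did not pass, with a median log2 fold change of 0.15 against 0.02 over all tested genes. Those that passed were 47.4% of the tested relatives, against 13.6% of all tested genes. Among fibrillins, FBN2, a microfibril protein prominent in development, was measured at 0.762, 0.544 and 0.563 FPKM in oeNC and at 8.64, 3.93 and 7.98 FPKM in oeSTUB1. It rose by a log2 fold change of 3.198 (SE 0.29, adjusted p = 0.00054 from limma), and all oeSTUB1 libraries were above 3 FPKM. The ratio of FBN2 to FBN1 lay between 0.725 and 1.21 in control libraries and between 3.86 and 4.63 with STUB1, so the prevailing fibrillin transcript was FBN2 after STUB1 overexpression. Among fibulins, EFEMP1 (fibulin-3) had 0.434, 0.485 and 0.570 FPKM in oeNC and 5.24, 5.32 and 3.83 FPKM in oeSTUB1. Its log2 fold change was 3.03 (SE 0.17, adjusted p = 7.9e-05 from limma), whereas FBLN1 of the same family was lower. FBLN5 and EFEMP2, which take part in elastic fibre assembly, did not pass (log2 fold changes of -0.05 for each, SE 0.14 and 0.19).

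TGFBI, the fasciclin-domain relative of POSTN, was the most abundant gene of the list. It was measured at 355.2, 347.2 and 301.9 FPKM in oeNC and at 594.2, 608.8 and 471.2 FPKM in oeSTUB1, a log2 fold change of 0.73 (SE 0.13, adjusted p = 0.0090 from limma). Among the CCN proteins, which are matricellular regulators of adhesion, CCN3 rose from 0.141 ± 0.0539 to 0.460 ± 0.0985 FPKM (SD, n = 3 each, log2 fold change 1.23, adjusted p = 0.017 from limma). CCN2 rose from 5.37 ± 1.19 to 8.82 ± 1.62 FPKM (SD, n = 3 each, log2 fold change 0.71, adjusted p = 0.043 from limma). CCN1 did not pass, and like SPARC it was higher in oeNC replicate 3 (28.7 FPKM) than in replicates 1 and 2 (15.0 and 15.3 FPKM). TNXB, a tenascin of loose connective tissue, fell from 0.317 ± 0.0262 to 0.0964 ± 0.0425 FPKM (SD, n = 3 each, log2 fold change -1.11, adjusted p = 0.022 from limma), while TNC was higher. Further genes, named after their values had been seen, were FSTL1 (log2 fold change 0.41), which rose, and THBS3 (-0.49) and LTBP4 (-0.37), which fell. The difference between relatives of a family was not itself tested.

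**Figure D3:**
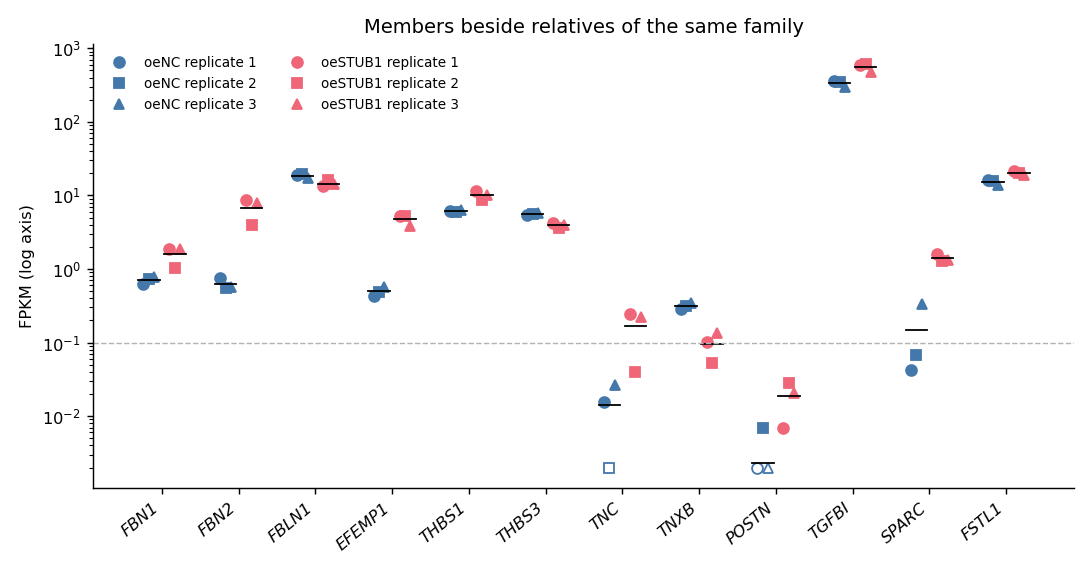
FPKM of 6 members beside a relative of each on a log axis, by library. Symbols are replicates, short lines are group means, the dashed line marks 0.1 FPKM, and open symbols at the bottom stand for 0. FBN2 and EFEMP1 reach 3.83 FPKM or more in every oeSTUB1 library from at most 0.762 FPKM in oeNC, and THBS3 and TNXB lie lower in oeSTUB1.

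Of the 9 relatives that passed, only FBN2 and EFEMP1 kept the adjusted p-value in all 6 fits that left out 1 library. THBS3 lost it without any 1 of the oeNC libraries. CCN3, TNXB, CCN2, FSTL1 and LTBP4 lost it in 3, 4, 4, 4 and 4 of these fits, FSTL1 also without an eBayes trend (adjusted p = 0.051 from limma), LTBP4 without a trend (0.060) and with a replicate block (0.068), and CCN2 also without a filter (adjusted p = 0.083 from limma), without an eBayes trend (0.075) and with a replicate block (0.086). TGFBI lost it without oeNC replicate 3 (adjusted p = 0.052 from limma).

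Of 21 receptors and binding partners 20 were listed and 16 tested, of which 2 rose, 2 fell and 12 did not pass. Those that passed were 25% of the tested receptors, against 13.6% of all tested genes. CD44, which binds hyaluronan and osteopontin, rose from 43.4 ± 3.21 to 67.2 ± 8.34 FPKM (SD, n = 3 each, log2 fold change 0.62, SE 0.11, adjusted p = 0.0089 from limma). CD47, a receptor of thrombospondin-1, had 3.30, 3.44 and 3.38 FPKM in oeNC and 5.07, 5.07 and 4.97 FPKM in oeSTUB1, with a log2 fold change of 0.56 (SE 0.09, adjusted p = 0.0052 from limma). SDC2, a heparan sulfate proteoglycan of the cell surface, fell from 3.30, 3.45 and 3.30 FPKM to 1.08, 1.08 and 1.29 FPKM, with a log2 fold change of -1.47 (SE 0.12, adjusted p = 0.00033 from limma). CACNA2D1, a calcium channel subunit that binds thrombospondins, fell from 6.11 ± 0.290 to 3.62 ± 0.747 FPKM (SD, n = 3 each, log2 fold change -0.76, adjusted p = 0.018 from limma). The fibronectin receptor subunits ITGA5 (log2 fold change 0.09, SE 0.09) and ITGB1 (0.25, SE 0.11) did not pass, but ITGB1 did without oeSTUB1 replicate 2 (log2 fold change 0.35, adjusted p = 0.0016 from limma). CD36 stayed below the filter with 3 to 12 fragments in any library. CACNA2D1 lost the adjusted p-value without any 1 of the oeNC libraries and CD44 without oeNC replicate 1. The median of the tested receptors was 0.16, against 0.02 over all tested genes. The number that rose was sensitive to the fit, with 5 by limma-voom on recovered fragments.

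Among genes for assembly and processing of matrix proteins, 17 in all, 16 were listed and 12 tested. Of these 12, 3 rose, 1 fell and 8 did not pass, so that 33.3% passed, against 13.6% of all tested genes. TGM2, a transglutaminase that cross-links fibronectin, rose from 66.4, 67.7 and 62.5 FPKM to 114.6, 106.9 and 96.5 FPKM (log2 fold change 0.69, SE 0.09, adjusted p = 0.0023 from limma). LOXL2, a lysyl oxidase that cross-links collagen and elastin, rose from 20.8 ± 1.90 to 31.2 ± 2.83 FPKM (SD, n = 3 each, log2 fold change 0.58, adjusted p = 0.0092 from limma). BMP1, a protease that processes procollagens and other matrix proteins, rose from 11.3 ± 0.441 to 15.0 ± 1.10 FPKM (SD, n = 3 each, log2 fold change 0.40, adjusted p = 0.021 from limma). TLL1, a protease of the same family, fell from 0.378 ± 0.0892 to 0.0948 ± 0.0226 FPKM (SD, n = 3 each, log2 fold change -1.29, adjusted p = 0.011 from limma). BMP1 and TLL1 differed in level by over an order of magnitude, so that BMP1 was the main transcript of this pair in both groups. BMP1 lost the adjusted p-value in 5 of the 6 fits that left out 1 library and with a replicate block (adjusted p = 0.058 from limma), and TLL1 in 2 of them.

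**Figure D4:**
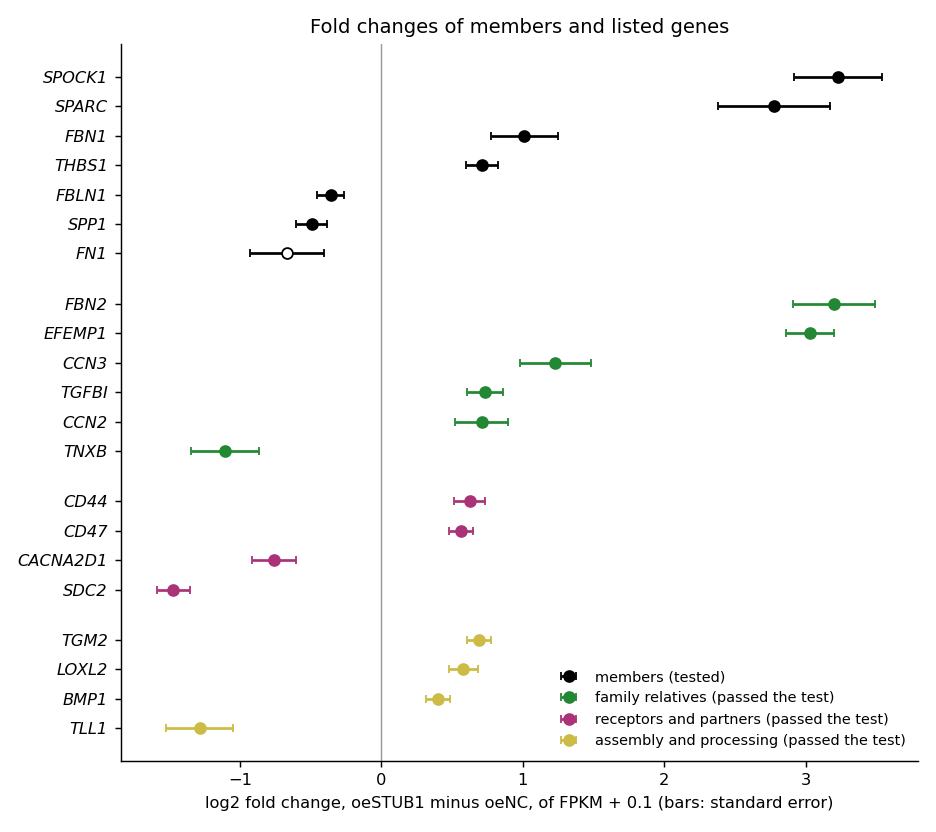
Log2 fold changes of FPKM + 0.1, oeSTUB1 minus oeNC (horizontal axis), with standard errors as bars, for the 7 tested members and for the genes of the 3 lists that passed the test, limited to the 6 largest changes among the relatives. Filled symbols passed at an adjusted p-value under 0.05 and the open symbol, FN1, did not. SPOCK1, FBN2, EFEMP1 and SPARC lie furthest to the right, between 2.78 and 3.23.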

How the data were processed

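RNA-seq of TFK1 cells was read from 1 table of FPKM values that the authors deposited for 23569 genes and 6 libraries, 3 oeNC and 3 oeSTUB1, with columns matched to the labels by title. The submitters' processing notes name fastp 0.20.1, HISAT2 2.1.0, HTSeq 0.11.2, R 3.2.0, DESeq2 1.22.2 and the build GRCh38.p13, while annotation, gene lengths and strand setting are not given in the sources used here. Whole fragments were recovered from the deposited FPKM steps for 100.0% of genes, within 4.9e-06 FPKM, apart from a possible common divisor of a gene's fragments. In simulated libraries with 200 genes changed 4-fold, 98.69% of 22652 genes were recovered exactly. There limma found 200 of the 200 genes changed 4-fold, each in its true direction, plus 17 false calls among 15358 tested genes. The changed genes were drawn from those averaging over 1 FPKM, and the simulated libraries had no slope with gene length. Detection of changes in lower genes or of changes smaller than 4-fold, which include many of those reported here, was not tested.

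Groups were fitted on log2(FPKM + 0.1) by limma 3.58.1 (R 4.3.3; two-sided moderated test, eBayes with trend). Genes averaging under 0.1 FPKM were left out, and p-values were adjusted after Benjamini and Hochberg over every gene tested. This scale understates changes of low genes. Members and gene lists were chosen with earlier results of these data known. Genes named from a list were those that passed with the 6 largest changes, plus all members, STUB1 and the most abundant cell type markers. Other genes were named after their values were seen. Positions are from GENCODE 29 (GRCh38), promoters from RefSeq (GRCh38.p14), and chromosomes from the RefSeq gene table. Other settings tried were a pseudocount of 1 or 0.01, a filter of 1 FPKM or none, median-ratio and quantile scaling, no trend, a replicate block, each library left out, limma-voom on recovered fragments and a minimum log2 fold change of 1. A lowess correction for gene length was chosen after seeing the data. Other steps ran in Python 3.11.15.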

Additional observations from a re-analysis of the deposited data

How the results depend on the processing

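Over the alternatives run, the tested members kept their sign, with SPARC between 1.07 (pseudocount of 1) and 3.73 (limma-voom), SPOCK1 between 1.35 and 4.12, and THBS1 between 0.62 and 0.82 on the log2 scale. The members were selected on this contrast, so neither their signs nor their calls over these settings are a test of stability. Among the other genes named with a log2 fold change, FBLN5 and EFEMP2, both near 0, changed sign, to 0.0227 and 0.0149 with quantile normalization and over a range of -0.106 to 0.0376 and -0.209 to 0.0507 when 1 library was left out. Leaving out 1 library gave 474 to 2273 higher and 453 to 1845 lower genes, the most without oeSTUB1 replicate 2 and the fewest without oeNC replicate 2. For members it gave 3 to 5 higher and 0 to 3 lower (2 to 3 lower at an unadjusted p under 0.05 from limma), for relatives 3 to 6 and 0 to 4 (4 to 5 lower unadjusted), for receptors 1 to 4 and 1 to 3, and for assembly genes 2 to 4 and 0 to 1 (1 lower unadjusted). The fifth higher member was TNC, which reached the filter only through its remaining oeSTUB1 values once oeSTUB1 replicate 2 was left out and so had to differ. The length correction gave 1675 higher and 1647 lower genes and 5 higher receptors. A minimum log2 fold change of 1 left 429 higher and 369 lower genes, 3 higher members (THBS1 was lost) and 0 lower, 3 higher and 1 lower relatives, 0 higher and 1 lower receptors and 0 higher assembly genes. Lower members numbered 1 without a filter and 0 without an eBayes trend (2 at an unadjusted p under 0.05 from limma, and 2 passed by limma-voom). A filter at 1 FPKM removed SPARC and SPOCK1, leaving 2 higher members, and TLL1, leaving 0 lower assembly genes. Higher receptors numbered 4 with quantile normalization, 4 without a trend and 5 with limma-voom. The cause of these moves was not tested, apart from genes removed by the filter.

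With a replicate block 741 genes were higher and 747 lower, and 1 member (SPP1) was lower. Same-numbered libraries showed no shared deviation, with correlations of -0.049, -0.052 and 0.062 between their deviations from the group means. This cannot show whether they were prepared together, which the labels do not state. Depth limited what could be said of THBS2 and POSTN, which had at most 4 fragments in any library.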
